A study of Mus musculus with 2 samples.

Results

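The MYC, MAX and MXD network was followed through the cell classes of mouse bone marrow by 10 of the 32286 features measured, chosen by symbol: the appended feature MYC and the mouse genes Mycn, Mycl, Max, Mxd1, Mxd4, Mxi1, Mnt, Mga and Mlx. Single bone marrow cells were profiled with a droplet-based 3′ kit in 2 libraries. The control library was labelled Mx1Cre+/-;Rosa26+/+ and the MYC library Mx1Cre+/-;Rosa26LSL-MYC/LSL-MYC, so both carried the Mx1-driven Cre recombinase, and the MYC library also carried, on both Rosa26 alleles, a MYC transgene behind a loxP-flanked stop. Mx1-Cre is active in cells that answer interferon and in many blood-forming cells. Whether and when Cre was induced, the animals' age and the number of animals behind each library are not given in the sources used here. With 1 library per genotype no difference between the libraries has a replicate check or a test, and all intervals given are 95% intervals that cover counting error only.

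The proteins of the network share a helix-loop-helix and leucine zipper fold and bind E-box sequences in pairs. MYC, MYCN and MYCL pair with MAX and raise transcription, whereas MXD1, MXD4, MXI1, MNT and MGA pair with the same MAX and recruit repressors, so that MAX is the shared partner of opposed arms. MLX heads a parallel branch that pairs with glucose-sensing factors and with some MXD proteins. In blood formation the proliferating progenitors are known for MYC and the differentiating cells for MXD proteins.

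By the GENCODE vM21 annotation of GRCm38, all 9 mouse genes are protein-coding. Mga lies at chr2:119897228-119969581, Mycl at chr4:122995652-123002485, Mnt at chr11:74830920-74845725, Mlx at chr11:101087277-101092207 and Mxi1 at chr19:53310518-53375810, all on the plus strand. Mxd4 lies at chr5:34173883-34187720, Mxd1 at chr6:86647042-86669161, Mycn at chr12:12936093-12941914 and Max at chr12:76937269-76962201, all on the minus strand. The appended MYC feature has no position there.

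E-box letters were looked for in the 250 bases before the RefSeq start of each mouse gene (GRCm38.p6), because the members are themselves E-box binding factors. The letters CACGTG, which read the same on both strands, were found in the windows of 3 genes, Mxd4, Mnt and Mlx, and were in 1978 (6.02%) of the 32851 promoter windows of the same length. No CACGTG was found in the windows of Mga, Mycl, Mxd1, Mycn and Max or in those of the 3 starts listed for Mxi1. A variant E-box, CATGTG, searched on both strands, had 1 match in 1 of the Mxi1 windows and was in 12.3% of all windows. The matches are shown 5′ to 3′ with the 30 bases on either side where the window allowed, and the capitals mark the motif.
Mxd4, chr5:34187894-34187959, minus strand: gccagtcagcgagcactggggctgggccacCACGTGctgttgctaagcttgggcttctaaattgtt
Mnt, chr11:74830771-74830836, plus strand: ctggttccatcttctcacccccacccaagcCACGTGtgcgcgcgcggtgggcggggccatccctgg
Mlx, chr11:101087220-101087285, plus strand: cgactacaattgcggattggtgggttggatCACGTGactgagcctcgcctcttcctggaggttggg
The first base of the motif lay 219 bases before the start of Mxd4, 123 before that of Mnt and 40 before that of Mlx. Among the compared classes the 3 genes had their highest level in different ones: Mxd4 was highest in T or NK cells, Mnt in mature B cells and Mlx in granulocyte progenitors.

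After filtering, 14903 control cells remained beside 12540 from the MYC library, holding 121642346 and 101793556 UMIs, or 5343 and 6016 UMIs in the median cell. The libraries shared 97 barcodes. Cells were clustered together and clusters named from marker genes, and 9 classes held at least 100 cells in each library: stem or multipotent progenitors (489 control cells and 560 of the MYC library), granulocyte progenitors (533 and 484), immature neutrophils (3278 and 3257), mature neutrophils (2895 and 2104), monocytes (1433 and 1536), mature B cells (585 and 141), T or NK cells (403 and 149), erythroid cells (1432 and 545) and basophils or mast cells (189 and 145). Plasmacytoid dendritic cells (254 and 73), plasma cells (251 and 89), macrophages (71 and 524) and B progenitors (407 and 17) fell short in 1 library and were left out of the ratios between libraries. Stromal or endothelial cells (93 and 103) and 2 unnamed clusters (2590 and 2813) were not compared. The mature neutrophils came from 3 clusters with uneven shares: a cluster led by Retnlg and Mmp8 held 1196 control cells and 923 of the MYC library, one led by Il1b and Csf3r 1536 and 131, and one led by Cstdc4 and Stfa2l1 163 and 1050. A level is the share of a class's UMIs that fell on the gene, scaled to CPM (counts per 1e+06 UMIs). Since 3′ counts depend on the gene's end, levels are compared between classes and libraries but not between genes.

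RNA of the MYC feature was sparse, and its level was highest in mature neutrophils and low in progenitors. The feature drew 0 UMIs in all 17073 control barcodes. In the MYC library it drew 289 UMIs among the kept cells, 2.84 CPM (2.52 to 3.19), and these lay in 267 cells, of which 246 had 1 UMI, 20 had 2 and 1 had 3. Its sequence is not given in the sources used here, so the level says how many reads that sequence drew and not how much MYC protein the cells had.

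Mature neutrophils held 112 of the MYC UMIs, 38.8% of them against 10.2% of all UMIs of the library, and their level was 10.8 CPM (8.88 to 12.98). Immature neutrophils had 2.67 CPM (2.13 to 3.32, 82 UMIs, 28.4% of the total) and monocytes 2.33 CPM (1.72 to 3.09, 48 UMIs, 16.6%). Both lay below mature neutrophils beyond their counting intervals. The earliest cells were low: stem or multipotent progenitors had 0.964 CPM (11 UMIs) and granulocyte progenitors 0.551 CPM (5 UMIs). T or NK cells, second by level among the compared classes, had 3.65 CPM (0.752 to 10.7) from 3 UMIs only, erythroid cells 1.09 CPM from 8, and basophils or mast cells 0.695 CPM from 1. Of the classes not compared, plasma cells had 3.35 CPM (1.23 to 7.29) from 6 UMIs in 6 of 89 cells, which per 1000 cells is 67.4 MYC UMIs against 53.2 in mature neutrophils, and macrophages 2.67 CPM (1.28 to 4.91) from 10. No MYC UMI fell in the 141 mature B cells, where the upper limit of 5.45 CPM does not separate them from monocytes. From granulocyte progenitors to mature neutrophils the level was 19.6-fold higher (8.14 to 61.4), and per cell, without division by total UMIs, 5.15-fold higher.

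Within the neutrophil classes each mature cluster lay above each immature one. The mature clusters led by Retnlg, by Cstdc4 and by Il1b had 8.92, 10.9 and 29.7 CPM of MYC, the last from only 14 UMIs. Among the immature clusters the one led by Mmp8 and Thbs1 had 5.42 CPM, the one led by Zmpste24 and Ltf 2.46, the one led by Fcnb 1.47 and the one led by Chil3 1.30. The intervals of the Retnlg cluster (6.51 to 11.9) and the Mmp8 and Thbs1 cluster (3.97 to 7.23) overlapped. All 9 mature neutrophil markers used for naming had UMIs in every compared class. At the proportion of MYC to these markers seen in mature neutrophils, the marker UMIs in monocytes would bring 0.416 CPM of MYC, those in erythroid cells 0.111 and those in stem or multipotent progenitors 0.184, each below the level measured there. In granulocyte progenitors they would bring 0.222 CPM against the 0.551 CPM found, whose interval (0.179 to 1.29) includes it. In basophils or mast cells they would bring 0.526 CPM against the 0.695 CPM found.

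**Figure D1:**
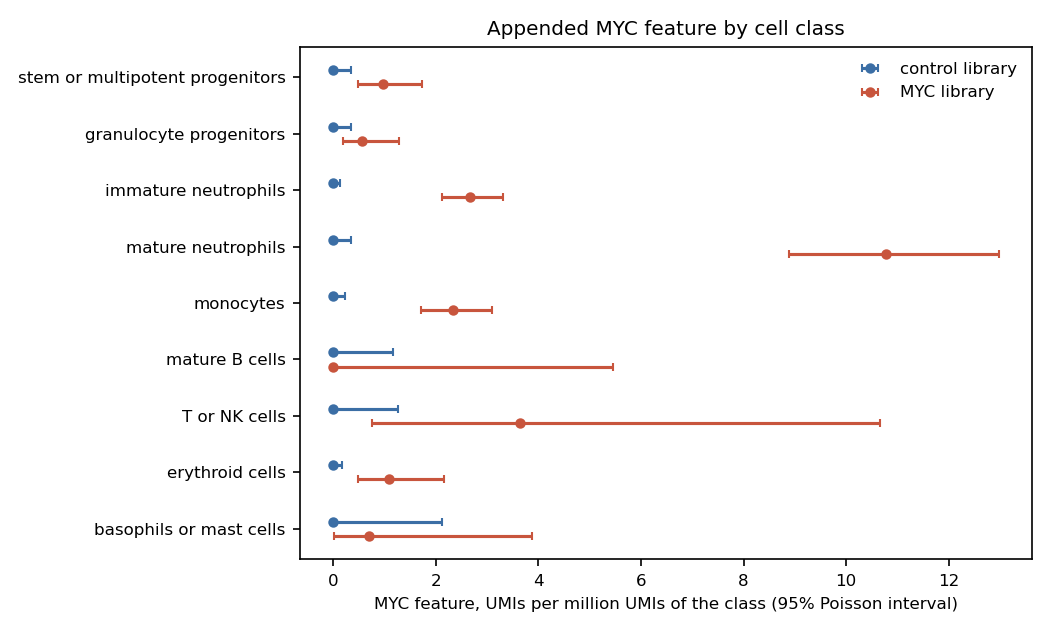
Level of the appended MYC feature (x axis, CPM) in each compared class (y axis); points are the summed UMIs of the class in the control (blue) or MYC (red) library and bars their 95% Poisson intervals. The control lies at 0 in every class, and mature neutrophils of the MYC library, at 10.8 CPM, stand above the other myeloid classes.

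The other MYC family genes had narrow patterns. Mycn, a MYC paralogue of stem cells and of the nervous system, was found almost only in stem or multipotent progenitors, with 9.45 CPM (101 UMIs) in the control against 6.48 CPM (74 UMIs) in the MYC library. Every other compared class had 0.182 CPM or less. The log2 ratio of MYC library over control was -0.54 (-0.996 to -0.10). This class also held cells with platelet factor 4 (Pf4), a megakaryocyte product: 65 control cells and 58 of the MYC library had at least 5 Pf4 UMIs, carrying 13.8% and 8.30% of the class's UMIs. Split by that limit, which was set after the values were seen, Mycn stood at 35.9 and 60.2 CPM (53 and 57 UMIs) in the Pf4-bearing cells and at 5.21 and 1.62 CPM (48 and 17 UMIs) in the rest. The Pf4-bearing cells were thus higher in the MYC library and the remaining progenitors lower, with a log2 ratio of -1.68 without the Pf4-bearing cells.

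Mycl, a further MYC paralogue, was highest in plasmacytoid dendritic cells, the interferon-producing cells of the marrow, at 57.9 CPM (48.6 to 68.5) in the control against 33.1 CPM (21.8 to 48.2) in the MYC library, where only 73 such cells were found. Monocytes had 2.38 and 1.46 CPM and stem or multipotent progenitors 2.34 and 1.23 CPM. The intervals of these 2 classes overlapped. Mature B cells had 0.952 and 0 CPM, and the remaining compared classes 0.357 CPM or less. The mouse gene Myc itself was highest in stem or multipotent progenitors, at 98.9 CPM in the control against 102 in the MYC library, and, among the compared classes, lowest in immature neutrophils, at 1.76 and 1.69 CPM, so that the transgenic feature and the mouse gene were high in opposite cells.

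Max, the shared partner, was found in every class, and mature neutrophils were its high point. It stood at 237 CPM in mature neutrophils of the control against 231 in the MYC library, and at 113 and 97.3 CPM in immature neutrophils. The mature values pool clusters that were shared unevenly between the libraries. The other compared classes lay between 45.5 and 72.3 CPM. From basophils or mast cells down to erythroid cells neighbours in the order overlapped in their counting intervals. Plasma cells were the lowest, at 15.4 and 26.2 CPM. From granulocyte progenitors to mature neutrophils Max was 4.72-fold higher in the control (4.31 to 5.19) and 4.90-fold in the MYC library (4.42 to 5.44). Counted per cell the same folds were 0.885 and 1.29, since mature neutrophils held far fewer UMIs per cell, so that the share of Max in the RNA was higher in both libraries and its count per cell in the MYC library alone.

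Mxd1, the MXD protein known for terminal differentiation, had the largest fold from granulocyte progenitors to mature neutrophils among the mouse members with UMIs at both stages. In the control its level was 37.6 CPM in stem or multipotent progenitors, 65.5 in granulocyte progenitors, 418 in immature neutrophils and 1285 in mature neutrophils. The MYC library gave 29.2, 60.8, 409 and 1056 CPM at the same stages. Each stage lay above the one before it beyond counting error in both libraries. Mature neutrophils stood 19.6-fold above granulocyte progenitors in the control (18.2 to 21.2) and 17.4-fold in the MYC library (15.9 to 18.9); counted per cell the folds were 3.67 and 4.57. The mature neutrophil markers found in granulocyte progenitors would bring 41.2 of their 65.5 CPM of Mxd1 in the control and 21.7 of 60.8 in the MYC library. In stem or multipotent progenitors the markers would bring 31.4 of 37.6 CPM and 18.0 of 29.2 CPM. With only cells under 5% mitochondrial UMIs the log2 fold was 3.36 in place of 4.29 in the control and 3.50 in place of 4.12 in the MYC library.

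The same course showed inside the stages. The immature clusters ran from 163 and 144 CPM of Mxd1 (led by Fcnb) through 187 and 220 (led by Chil3) and 443 and 449 (led by Zmpste24) to 826 and 781 CPM (led by Mmp8), control first. The mature clusters had 1202 and 983 CPM (led by Retnlg), 1370.2 and 1124 CPM (led by Il1b) and 1348 and 1126 CPM (led by Cstdc4). In each of these 3 the MYC library was the lower, as it was over all mature neutrophils, where the log2 ratio was -0.28 (-0.32 to -0.25). The median over all genes in that class was -0.22, and relative to it the ratio was -0.07. Counted per cell the ratio over mature neutrophils turned to 0.10. A small cluster led by the interferon-induced genes Ifit1 and Ifit3 (73 cells in the control, 14 in the other library) stayed unnamed because no cell type marker was among its leading genes. Its Mxd1 was above that of every named cluster, at 1824 CPM (1666 to 1992) and 2018 CPM (1695 to 2384), and its mature neutrophil marker sum was 26510.2 and 38809 CPM.

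A like course was seen across the erythroid clusters. In the cluster led by Car1, a carbonic anhydrase of early erythroid cells, Mxd1 stood at 30.1 CPM in the control against 32.6 in the MYC library. The cluster led by Hemgn and Rhd had 114 and 91.2 CPM. The cluster led by Tmcc2, Xpo7 and Bpgm, genes of late erythroid cells, had 509.7 CPM (474 to 547) and 347 CPM (300.4 to 398). Both libraries gave the same order with intervals apart at each step, and in the last 2 clusters the MYC library was the lower. Mature neutrophil markers in the Tmcc2 cluster would bring 20.6 and 25.7 CPM of Mxd1 at their proportion in mature neutrophils. Its cells had a median of 5388 and 2056 UMIs, against 5343 and 6016 over all kept cells, so those of the MYC library were shallow.

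Outside these lineages basophils or mast cells had the most Mxd1 among the compared classes, at 195 and 145 CPM, above the erythroid cells as a whole (109 and 84.8 CPM). Their neutrophil markers would bring 87.6 and 51.6 CPM. Mature B cells had 34.0 and 28.1 CPM against 37.0 and 23.6, and monocytes 43.4 and 30.9 CPM against 77.8 and 40.8. In mature B cells and monocytes Mxd1 of the cells cannot be told apart from neutrophil RNA. T or NK cells had 63.0 CPM in the control against 92.4 in the MYC library, giving a log2 ratio of 0.55 (0.15 to 0.95), while their neutrophil markers would bring 45.1 and 36.9 CPM. For Max the markers would bring at most 16.2 CPM in any compared class other than the neutrophils.

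**Figure D2:**
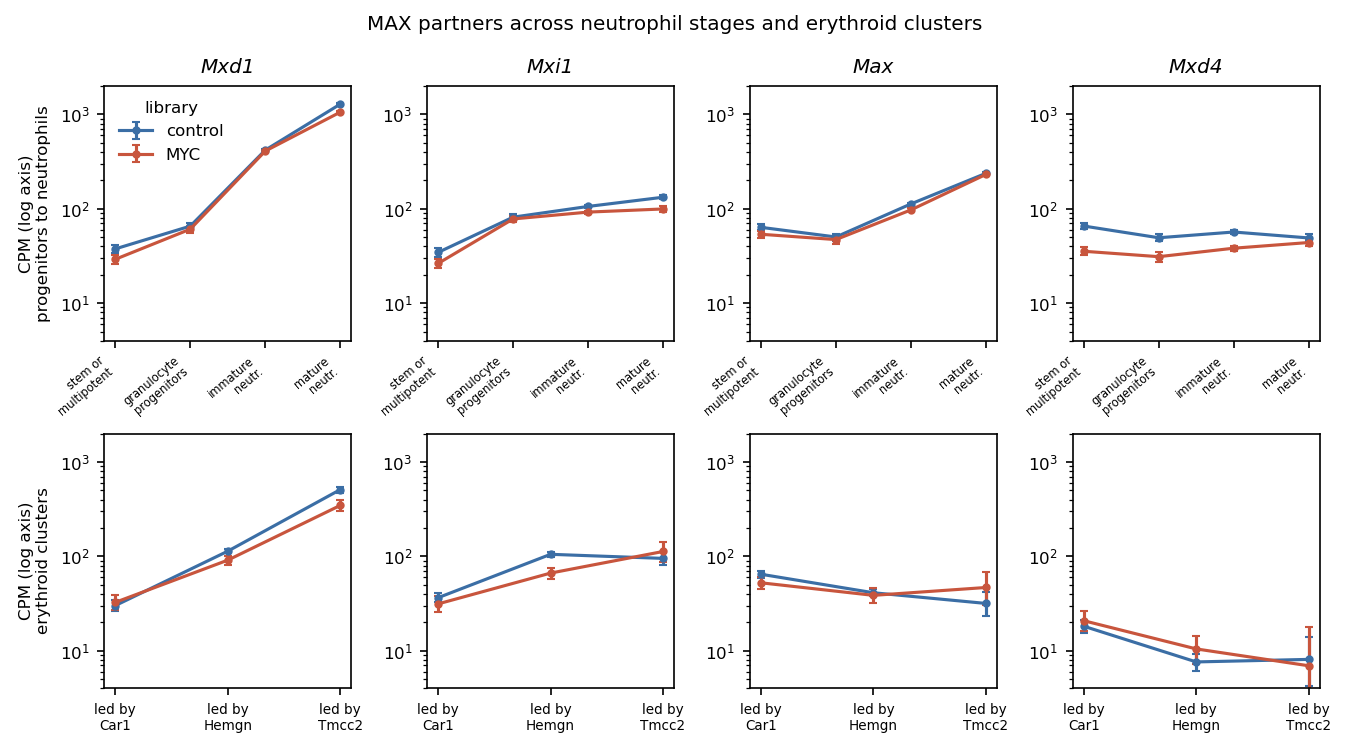
Level (CPM, log axis) of Mxd1, Mxi1, Max and Mxd4 from progenitors to mature neutrophils (top row) and in the 3 erythroid clusters (bottom row), with control in blue, the MYC library in red and 95% Poisson intervals. Mxd1 climbs in both lineages and both libraries, from 65.5 to 1285 CPM between granulocyte progenitors and mature neutrophils of the control, while Mxd4 stays between 31.1 and 65.7 CPM in the top row.

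Mxi1, a MAX partner and MYC antagonist, also stood higher in neutrophils and erythroid cells than in lymphocytes, with smaller steps. Its level was 34.5 and 26.4 CPM in stem or multipotent progenitors, 81.5 and 78.0 in granulocyte progenitors, 106 and 92.2 in immature neutrophils and 133 and 99.6 CPM in mature neutrophils. Mature neutrophils exceeded granulocyte progenitors 1.63-fold in the control (1.49 to 1.77) and 1.28-fold in the MYC library (1.16 to 1.41), but counted per cell the folds were 0.305 and 0.336. Mature B cells were lowest, at 15.6 and 8.86 CPM. Among the erythroid clusters Mxi1 had 36.5 and 31.4 CPM in the one led by Car1, 105 and 66.5 in the one led by Hemgn and 95.2 and 113 CPM in the one led by Tmcc2. The libraries differed in order over the last 2: the Hemgn cluster was the lower in the MYC library and the Tmcc2 clusters overlapped. Over all erythroid cells Mxi1 was 79.1 CPM in the control against 54.3 in the MYC library, giving a log2 ratio of -0.54 (-0.70 to -0.39).

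Mxd4, a repressor partner of MAX, ran the other way. Among the compared classes T or NK cells were highest, at 121 CPM in the control against 80.3 in the MYC library, followed by mature B cells at 78.7 and 47.3 CPM, and erythroid cells were lowest at 11.6 and 14.9 CPM. Plasmacytoid dendritic cells, with 102 and 71.2 CPM, and plasma cells, with 75.0 and 83.1, were in the upper range too. From granulocyte progenitors to mature neutrophils the fold was 0.995 (0.882 to 1.12) in the control and 1.41 (1.22 to 1.64) in the MYC library; counted per cell it was 0.187 and 0.372. Reads of Mxd4 and of Gm42846, which overlaps it on the opposite strand, are told apart only where the counting used strand, which is not given in the sources used here.

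Mnt, the widely found MAX partner that curbs MYC in dividing cells, was present at a modest range of levels in all 9 classes. Mature B cells were highest, at 35.9 and 32.5 CPM. Erythroid cells were low, at 11.2 and 12.5 CPM, as were plasma cells, at 10.8 and 6.69 CPM. Between mature B cells and stem or multipotent progenitors all neighbours in the order overlapped in their counting intervals. Granulocyte progenitors had 18.8 and 11.7 CPM, immature neutrophils 15.3 and 11.9, and mature neutrophils 28.0 and 19.1 CPM.

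Mga, a large MAX partner that also carries a T-box domain and belongs to a Polycomb-like repressor complex, was highest in mature B cells. It stood at 121 and 90.1 CPM in mature B cells, 94.6 and 62.1 in stem or multipotent progenitors and 80.1 and 59.6 CPM in T or NK cells, and at 91.4 and 43.8 CPM in basophils or mast cells. Immature neutrophils were lowest, at 26.6 and 19.0 CPM. Through the erythroid clusters it went from 83.9 and 61.5 CPM (led by Car1) to 23.6 and 21.5 (led by Hemgn) and 7.43 and 12.1 CPM (led by Tmcc2), opposite to Mxd1 in the same cells.

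Mlx was highest in granulocyte progenitors, at 53.9 CPM in the control against 44.5 in the MYC library. From there to mature neutrophils, with 24.0 and 27.4 CPM, the level was 2.24-fold lower in the control and 1.62-fold lower in the MYC library. The other compared classes lay between 14.8 and 31.6 CPM. Mlx overlaps Psmc3ip on the opposite strand, and Mxi1 overlaps Gm10197 and AC133451.2, so the limit on strand given for Mxd4 holds for both.

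**Figure D3:**
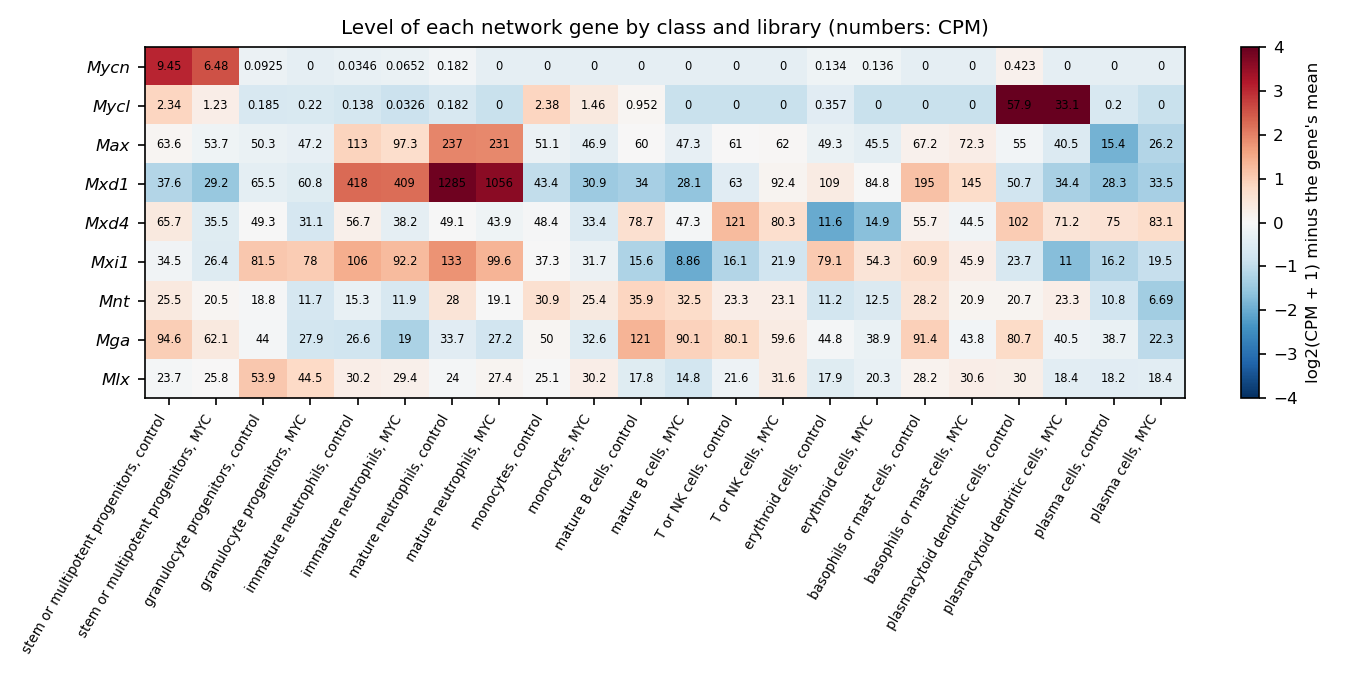
Level of the 9 mouse genes (rows) in each compared class and in plasmacytoid dendritic and plasma cells, by library (columns); the printed numbers are CPM and the colour is log2(CPM + 1) minus the gene's mean over the columns. Mycn stands out in stem or multipotent progenitors, Mycl in plasmacytoid dendritic cells, and Max and Mxd1 in neutrophils, in both libraries.

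Across the 18 points given by 9 classes and 2 libraries, Max and Mxd1 had the closest course among the members (r = 0.90), and Mxd1 and Mxi1 followed (r = 0.75). Mxi1 and Mga ran opposite (r = -0.75), as did mouse Myc with Max (r = -0.62) and with Mxd1 (r = -0.61). These values describe log2(CPM + 1) over points that share libraries, and the paired points of a class are not independent. Among 5693 other genes of at least 20 CPM on average, the course most like that of Max was that of Retnlg (r = 0.97), a neutrophil marker, then Dhrs9 and R3hdm4. For Mxd1 it was Adam8 (r = 0.93), R3hdm4 and Slc2a3, the last a glucose transporter. Mxi1 was followed most closely by Agap1 (r = 0.95), Wipi1 and Mid1ip1, and Mxd4 by Itpkb (r = 0.97), Fnbp1 and Zdhhc20. Mnt was closest to St8sia4 (r = 0.91), Zfp263 and Csk, and Mga to Chd6 (r = 0.93), 4933434E20Rik and Elf1. The likeness was weaker for Mlx, whose nearest gene was Ppp2cb (r = 0.87), before Tmem165 and Impa2.

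Between the libraries, no mouse member was at least 1.5-fold higher in the MYC library in any compared class, and 8 of the 11 pairs lower by that much were of Mga and Mxd4. A pair of gene and class was compared where the class held at least 50 UMIs of the gene over both libraries, which 65 of the 90 pairs met; MYC met it nowhere as a ratio because the control was at 0. Of the 65 pairs 0 were at least 1.5-fold higher and 11 (16.9%) at least 1.5-fold lower in the MYC library. Over all genes 8.53% of pairs were higher and 19.7% lower by that rule. The share of lower member pairs was therefore near that of genes at large. Class by class only 7 or 8 members were compared, and their lower shares lay above the background in some classes and below it in others. In granulocyte progenitors 3 of 7 were lower against 28% of all genes (4.55% higher), in stem or multipotent progenitors 2 of 8 against 15.9% (5.17% higher), and in monocytes 2 of 8 against 18.3% (10.4% higher). In mature B cells 2 of 7 were lower against 29.5% (6.95% higher), in T or NK cells 1 of 7 against 15.1% (10.3% higher), and in basophils or mast cells 1 of 7 against 20.8% (8.98% higher). None of the 7 members compared was lower in immature neutrophils, mature neutrophils or erythroid cells, where 16.8%, 21.7% and 14.8% of all genes were lower and 8.08%, 8.23% and 14.2% higher. The median log2 ratio was -0.28 over the member pairs and -0.18 over all pairs.

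The median of all genes was itself below 0 in every class, from -0.31 in granulocyte progenitors to -0.04 in erythroid cells. With that median taken as the zero, by median-of-ratios scaling, 2 pairs were at least 1.5-fold lower, Mxd4 in stem or multipotent progenitors and Mga in basophils or mast cells, and 2 were higher, Mxd1 and Mlx in T or NK cells. All 11 lower pairs kept their sign in each alternative that gave a value, but past 1.5-fold in all 10 alternatives stood only Mga in basophils or mast cells.

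Mga was lower in the MYC library in all 9 classes, with 8 of the intervals below 0; the sign turned for mature neutrophils counted per cell (0.06) and for erythroid cells with the mean over cells (0.69) or only cells under 5% mitochondrial UMIs (0.02). In basophils or mast cells it had 91.4 CPM in the control against 43.8 in the MYC library, giving a log2 ratio of -1.06 (-1.51 to -0.63), or -0.88 relative to all genes. Stem or multipotent progenitors had 94.6 and 62.1 CPM (log2 ratio -0.61, -0.75 to -0.47), and monocytes 49.96 and 32.6 CPM (-0.62, -0.77 to -0.47). Granulocyte progenitors had 44.0 and 27.9 CPM, giving a log2 ratio of -0.66 in a class where 28% of all genes were at least 1.5-fold lower. Relative to all genes these 3 came to -0.43, -0.47 and -0.35.

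Mxd4 passed the fold in 4 classes. In stem or multipotent progenitors it had 65.7 CPM in the control against 35.5 in the MYC library, giving a log2 ratio of -0.89 (-1.07 to -0.71), where 15.9% of all genes were at least 1.5-fold lower; without the Pf4-bearing cells the log2 ratio was -0.98. Granulocyte progenitors had 49.3 and 31.1 CPM (-0.67). Mature B cells, at -0.74 (-1.32 to -0.20), and T or NK cells, at -0.60 (-0.997 to -0.21), had wider intervals from 141 and 149 cells of the MYC library. Immature neutrophils, at -0.57 (-0.68 to -0.46), and monocytes, at -0.54 (-0.69 to -0.39), fell just short of the fold. In mature neutrophils the value was -0.16 (-0.34 to 0.02), or 0.22 counted per cell, and erythroid cells went the other way, at 0.36 (0.03 to 0.69).

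The remaining 3 lower pairs rested on fewer UMIs or on a class that was lower as a whole. Mnt in granulocyte progenitors had 18.8 CPM (203 UMIs) in the control against 11.7 CPM (106 UMIs) in the MYC library, giving a log2 ratio of -0.69 (-1.04 to -0.34) and -0.37 relative to all genes. Mxi1 in mature B cells had a log2 ratio of -0.81 with an interval from -2.33 to 0.41, and Mycl in monocytes -0.71 with an interval from -1.45 to 0.02. Both intervals include 0.

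Max, Mxd1 and Mlx stayed within 1.5-fold in all 9 classes. For Max the log2 ratios ran from -0.34 in mature B cells to 0.10 in basophils or mast cells, and 2 of 9 intervals lay below 0. Stem or multipotent progenitors were 1 of these 2 (-0.24, -0.40 to -0.08). Their Pf4-bearing cells had 140 CPM of Max in the control against 50.7 in the MYC library, and the rest 51.3 against 54.0. For Mxd1 the log2 ratios ran from -0.49 in monocytes to 0.55 in T or NK cells, with 5 intervals below 0 and 1 above. Mlx ran from -0.27 in granulocyte progenitors to 0.55 in T or NK cells (-0.17 to 1.23), and its median of 0.12 was the highest of the members; monocytes had 25.1 and 30.2 CPM, giving a log2 ratio of 0.27 (0.08 to 0.45).

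**Figure D4:**
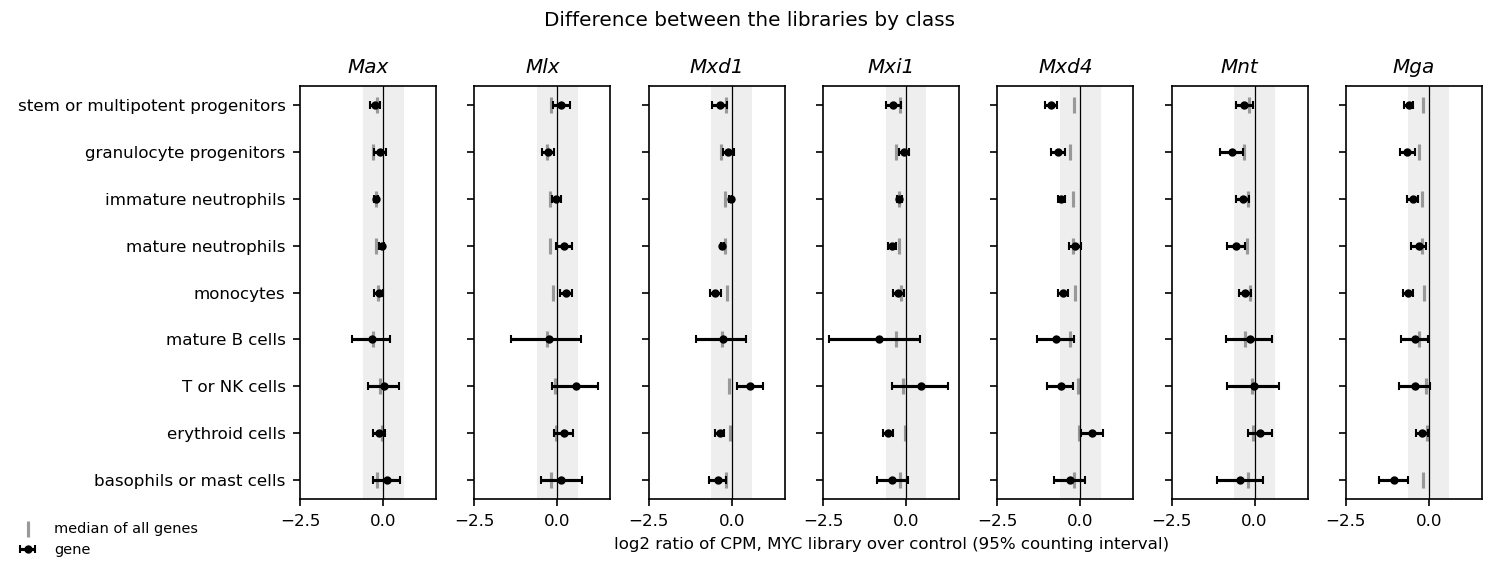
Log2 ratio of CPM, MYC library over control (x axis), in each compared class (y axis) for 7 members; points are ratios with 95% counting intervals, the grey band marks less than 1.5-fold, and grey ticks mark the median of all genes in the class. Mga and Mxd4 lie left of the band in 4 classes each, and Max, Mlx and Mxd1 lie within it in all 9.

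Other genes of the network were read from lists of partners and targets. Of the extended network, Myc, Mxd3, Mlxip and Mlxipl, 25 of 36 pairs were compared, of which 1 (4%) was higher and 8 (32%) lower, against 8.53% and 19.7% over all pairs. The higher one was Myc in erythroid cells, at 32.0 and 51.1 CPM (log2 ratio 0.68). The same gene was lower in mature B cells (20.001 and 7.39 CPM, -1.44, -3.11 to -0.14), monocytes (8.20 and 5.24 CPM, -0.65) and T or NK cells (-0.59, -1.36 to 0.11), and stood at 44.5 and 31.2 CPM in granulocyte progenitors (-0.51, within 1.5-fold). Mlxip, which encodes the MLX partner MONDOA, was lower in granulocyte progenitors (-0.98), basophils or mast cells (-0.93) and monocytes (-0.84), and Mxd3, an MXD gene of dividing cells, in mature neutrophils (-1.20) and stem or multipotent progenitors (-0.73). The median of the list was -0.44 against -0.18 over all pairs.

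The targets of MLX and MONDOA gave 15 pairs, 3 higher and 3 lower (20% each, against 8.53% and 19.7% over all pairs). Txnip, an inhibitor of glucose uptake, was lower in mature neutrophils (556 CPM in the control against 269.8 in the MYC library, log2 ratio -1.04), in monocytes (200.2 and 103 CPM, -0.95) and in basophils or mast cells (-0.61). Arrdc4, a related arrestin, was higher in erythroid cells (1.88 and 5.86 CPM, 1.64), granulocyte progenitors (2.68 and 5.95 CPM, 1.15) and stem or multipotent progenitors (0.60). Corepressors of the MXD and MNT proteins had 1 pair of 54 higher (1.85%) and 7 lower (12.96%), both shares below those over all pairs (8.53% and 19.7%), and the lower pairs included Sin3a in granulocyte progenitors (-0.69) and Ncor1 in mature neutrophils (629 and 371 CPM, -0.76).

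The 12 genes listed as common direct targets of MYC were compared in 104 pairs, of which 13 (12.5%) were higher and 4 (3.85%) lower, with a median log2 ratio of 0.21; over all pairs these shares were 8.53% and 19.7%. Monocytes held 5 of the higher pairs, of 12 compared (41.7%, against 10.4% of all genes there): Srm, which makes spermidine (13.1 and 32.8 CPM, 1.33), Nop58 (0.98), Ldha (0.94), Npm1 (0.69) and Cad (0.64). Mature neutrophils, where the MYC feature was highest, had 1 target higher, Ldha at 152 and 264 CPM (0.79), and 3 lower, Cad (-0.95), Odc1 (-0.83) and Nop56 (-0.78), of 11 compared (9.09% and 27.3%, near the 8.23% and 21.7% of all genes there). Immature neutrophils had 3 of 12 higher (25%, against 8.08% of all genes), Fbl (0.79), Srm (0.64) and Npm1 (0.60), and 0 lower. In mature neutrophils the median over the list was -0.23 and that over all genes -0.22. The same medians were 0.22 and -0.21 in immature neutrophils and 0.54 and -0.14 in monocytes.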

How the data were processed

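Bone marrow cells of 2 genotypes were measured in 1 droplet library each, grouped by the genotype in the labels. The deposited values were raw UMI counts per feature and barcode, which per the file headers came from Cell Ranger 6.0.0; the submitters' processing notes also name Seurat and the builds GRCm38 and mm10. How barcodes were called as cells and whether strand was used are not given in the sources used here. Gene positions were matched by identifier to GENCODE vM21 (GRCm38), and promoter windows came from RefSeq (GRCm38.p6).

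Barcodes needed 500 UMIs, 200 genes and a mitochondrial share below 10% to be kept. The mitochondrial limit removed 1609 control barcodes and 1600 of the MYC library, and the other limits a further 3 and 0. Scrublet's automatic threshold called no doublet in the MYC library, so a score threshold of 0.2 was then set for both libraries; it removed 558 (3.61%) and 356 (2.76%) cells, against 13.7% and 11.6% expected at 0.8% per 1000 barcodes, so doublets remained. Both libraries were clustered together with scanpy 1.11.5 (2000 variable genes without the members and the lists, 30 principal components, 15 neighbours, Leiden resolution 1, seed 0) and the 26 clusters named from markers of 18 cell types. Each was given the type of highest marker score among types with at least 3 detected markers and 1 marker among its 10 leading genes, unless another lineage had more there. The naming rule was changed after the clusters were seen, for the progenitors and neutrophil stages. A shallow cluster (2517 control cells and 2799 of the MYC library, medians of 751 and 815 UMIs) and an interferon gene cluster (73 and 14 cells) stayed unnamed; the named stromal cluster was shallow too (814 and 981 UMIs). Free RNA was not corrected.

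UMIs were summed by class and library and divided by the class total. Levels have exact Poisson intervals, and ratios exact conditional binomial intervals. The ratio intervals were checked on simulated counts drawn from the same Poisson model, so the check could not show spread beyond counting error. No test was run, since each genotype had 1 library. All 10 members were described; like genes were the 3 with the highest Pearson r among genes of at least 20 CPM on average. Lists were other network members, coactivators, corepressors, MYC turnover, MLX and MONDOA targets, and MYC targets. The members and lists were chosen with earlier results of these data known. Alternatives changed the resolution, cell filters, doublets, scaling and averaging; one without Pf4-bearing progenitors was added after seeing the data. Some genes of the lists are counted but not reported here by name.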

Additional observations from a re-analysis of the deposited data

Results flagged for a closer look

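Barcodes left out of the comparisons held MYC UMIs too. In the MYC library the 356 called doublets carried 25 MYC UMIs, 6.73 CPM (4.36 to 9.94), against 2.84 CPM in the kept cells. The 1600 barcodes of high mitochondrial share carried 15, 3.33 CPM (1.86 to 5.49). The same kinds of barcode in the control, 558 and 1609 of them, carried 0.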

How the results depend on the processing

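The count of pairs at least 1.5-fold lower in the MYC library, 11 as reported, was 6 at Leiden resolution 2, 2 with median-of-ratios scaling and 17 with the 20 most abundant genes left out of the denominator, and 8 to 13 in the other alternatives. The count of higher pairs, 0 as reported, was 2 with a minimum of 1000 UMIs and 500 genes, 2 with median-of-ratios scaling, 4 with the mean over cells and 1 at resolution 0.5. The log2 fold of Mxd1 from granulocyte progenitors to mature neutrophils, 4.29 for the control and 4.12 for the MYC library, kept its direction throughout. It was 4.66 and 4.56 at resolution 0.5, 4.46 and 4.52 at resolution 2, 3.36 and 3.50 under 5% mitochondrial UMIs, 4.604 and 4.47 with the deeper cells, 5.13 and 4.81 with median-of-ratios scaling, 4.75 and 4.69 without the abundant genes, and 1.88 and 2.19 per cell; with doublets kept the control gave 4.08. Apart from the scalings, whose zero differs by construction, the cause was not tested. Of the 11 lower pairs 2 to 11 were called again, fewest with median-of-ratios scaling. No paired analysis was possible because each genotype had 1 library. Depth limits MYC, Mycn and Mycl most, since outside their main classes they rest on few UMIs.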

Other observations

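Among genes that govern MYC protein stability, Gsk3b, a kinase that marks MYC for degradation, was at least 1.5-fold lower in the MYC library in 4 classes, with 93.6 and 56.4 CPM in stem or multipotent progenitors (log2 ratio -0.73) and 114 and 73.2 CPM in immature neutrophils (-0.64), control first. Fbxw7, which binds the marked protein for degradation, was lower in mature B cells (57.1 and 22.2 CPM, -1.37). Skp2, a ubiquitin ligase subunit, was lower in stem or multipotent progenitors (28.3 and 16.5 CPM, -0.78). Over the turnover list 8 of 90 pairs (8.89%) were higher and 16 (17.8%) lower, near the 8.53% and 19.7% over all pairs. The genes named here come from the lower pairs; the higher pairs lay in 8 of the 9 classes, 1 in each.

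Among coactivators, Ruvbl1, an ATPase of chromatin complexes, was higher in immature neutrophils (9.34 and 14.96 CPM, 0.68), monocytes (26.7 and 43.6 CPM, 0.71) and T or NK cells (0.81), and its partner Ruvbl2 in monocytes (0.66). Smarca4, a chromatin remodelling ATPase, was lower in granulocyte progenitors (112 and 72.0 CPM, -0.64) and mature B cells (-0.95). The list had 4 of 87 pairs (4.60%) higher and 13 (14.9%) lower, both below the shares over all pairs.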
